A study of Mus musculus with 24 samples.

Results

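The Hox genes described here are 38 protein-coding genes of the 4 mouse Hox clusters, chosen by name, out of 55385 Ensembl genes in each expression table. They are 10 genes of HoxA on chromosome 6 (52162417 to 52260880, GRCm38), 10 of HoxB on chromosome 11 (96194316 to 96368256), 9 of HoxC on chromosome 15 (102921103 to 103036852) and 9 of HoxD on chromosome 2 (74668310 to 74765142). The study sequenced ribosomal RNA-depleted total RNA of mouse embryonic stem cells (ESCs) and asked how mitochondrial membrane potential (ΔΨm), S-adenosylmethionine (SAM) supply, fatty acid oxidation, MYC and the Polycomb protein EED act on the transcriptome. There were 24 libraries in 12 groups of 2, in 6 tables of 4 libraries that shared no library.

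Eed-/- ESCs were set against Eed fl/- ESCs, which carry 1 floxed and 1 null copy of Eed. Both were derived from blastocysts sired by males with a Protamine-Cre transgene, from a mutant stock kept on a 129 background, and were expanded on mouse embryonic fibroblast feeders, so feeder RNA could enter both. All other groups were E14 ESCs, expanded without feeders. Every group was kept in 2i/LIF, which holds ESCs in the naive state, but the Eed lines in another base medium with serum and serum replacement. Low ΔΨm cells were compared with high ΔΨm cells, both sorted with the dye TMRM. Low ΔΨm cells given SAM at 50 µM for 1 day were compared with low ΔΨm cells given 25 µM. Cells transfected with small interfering RNA against Mat2a, the enzyme that makes SAM (siMat2a), were compared with cells given non-targeting RNA (siCtr). Cells given the fatty acid oxidation inhibitor etomoxir at 100 µM for 4 days (FAOi) were compared with H2O, and cells given a small-molecule MYC inhibitor at 64 µM for 3 days (MYCi) with DMSO.

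Hox proteins are homeodomain transcription factors that give cells their position along the body axis. Genes at the 3' end of a cluster, with low paralogue numbers, act in the hindbrain and neck, and genes at the 5' end, with high numbers, in the trunk, limbs and genitalia. In ESCs the clusters lie in broad domains of H3K27me3, the repressive mark written by Polycomb repressive complex 2 (PRC2), of which EED is a core subunit, while trithorax complexes, retinoic acid and CDX proteins act as activators.

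Levels are given as FPKM, fragments scaled to transcript length and library size, as the authors deposited them. Changes are log2 ratios of FPKM + 0.1, which understates the change of low genes. A gene was tested where at least 2 of the 4 libraries reached 0.1 FPKM, and called at an adjusted p under 0.05 (limma, Benjamini-Hochberg over all genes). From the step that 1 fragment leaves in the values, 27.2 to 64.2 M (mega) fragments a library were estimated to lie on Ensembl genes. The estimated total by which each library was divided came to 66.6 and 74.5 M in FAOi cells, against 48.3 and 35.2 M in H2O cells, to 76.6 and 71.1 M in MYCi cells, against 37.1 and 46.0 M in DMSO cells, and to 63.7 and 87.9 M in siMat2a cells, against 44.3 and 43.2 M in siCtr cells. The fragments on Ensembl genes did not differ in that direction, in the first of these comparisons at 30.9 and 33.4 M in FAOi cells, against 40.0 and 39.6 M in H2O cells. In H2O replicate 2 they came to 112.5% of the estimated total, so either that divisor was not a plain total or the estimates are off, and fragment numbers here are approximate. Results of these 3 comparisons are therefore given also after median-of-ratios scaling, which moved the median change of all genes by 0.74 in FAOi, 0.72 in MYCi and 0.70 in siMat2a, by 0.41 in the SAM table, by -0.05 in low ΔΨm and by -0.11 in Eed-/- cells. The targeted genes followed the labels. Eed had 2.72 and 2.78 FPKM in Eed-/- cells, against 11.4 and 11.6 FPKM in Eed fl/- cells, and Mat2a had 13.5 and 9.44 FPKM in siMat2a cells, against 48.5 and 45.1 FPKM in siCtr cells.

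The clusters were unequal in level, and the 5' end of HoxC led. Hoxc13, which acts in hair and nail formation, was the highest member in 23 of the 24 libraries, with 3.24 to 11.8 FPKM (median 6.26) in the 20 E14 libraries. Hoxc12 had 1.43 to 4.89 FPKM and Hoxb9, a gene of the thoracic skeleton, 1.39 to 7.03 FPKM in the same libraries. At the low end, Hoxd12 was listed at 0 in 18 of the 24 libraries and Hoxb5 and Hoxb6 in 14 each, and Hoxb5 and Hoxd3 did not reach 0.1 FPKM in any. In the E14 libraries 11 to 29 members reached 0.1 FPKM. In Eed-/- cells 34 and 35 did so, against 8 and 9 in Eed fl/- cells. Reads were counted without strand and shared among overlapping features, so overlapping and antisense transcripts cannot be told apart. By the annotation 23 members share no exon base with another gene, but over 25% of the exon bases of Hoxa3, Hoxa11, Hoxb2, Hoxb3, Hoxd3 and Hoxd4 are shared, and the values of these 6 are uncertain.

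**Figure D1:**
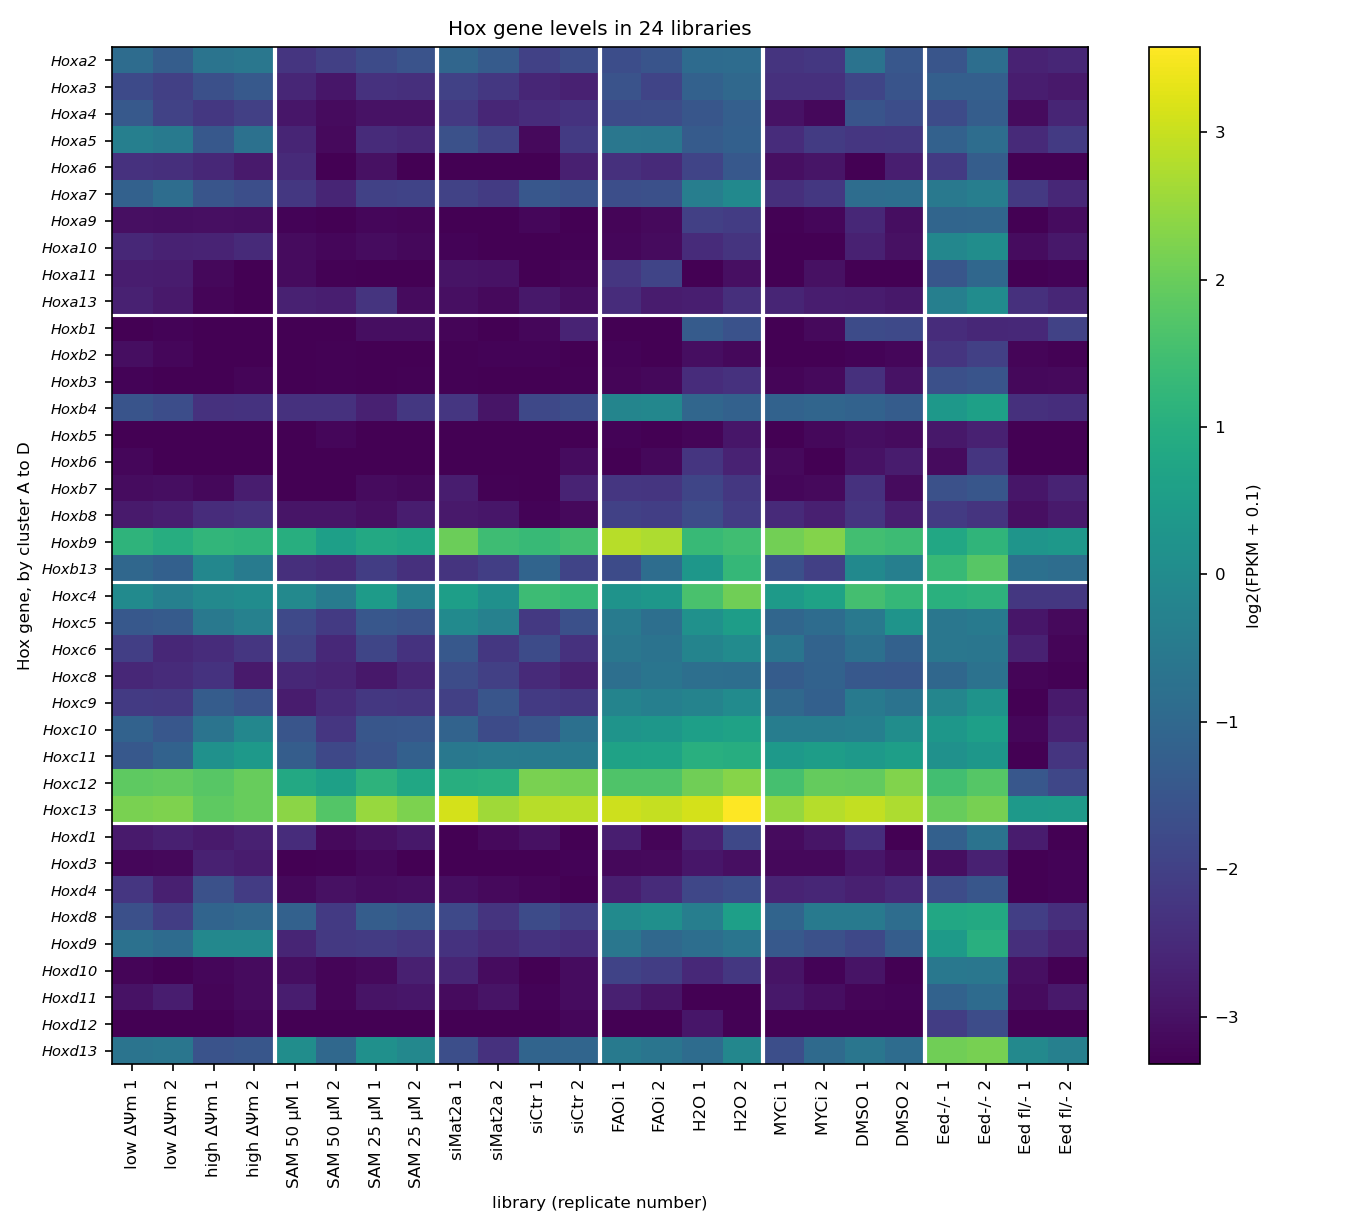
Level of each of the 38 Hox genes in each of the 24 libraries, 2 per group, as log2(FPKM + 0.1). Hoxc13, Hoxc12 and Hoxb9 are high in the 20 E14 libraries, Hoxc12 is much lower in the 2 Eed fl/- libraries, and the 2 Eed-/- libraries are higher than the 2 Eed fl/- libraries in every cluster.

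Eed-/- cells were set against Eed fl/- cells to compare the clusters without and with EED. The genotypes are lines from different blastocysts, and the number of lines behind the libraries is not stated. Line and genotype therefore cannot be told apart here. Both Eed-/- libraries exceeded both Eed fl/- libraries for 37 of the 38 members, against 36.7% of genes detected in any library, with Hoxb1 the exception. With no filter on low values, 32 of 38 members were called higher, against 13.6% of genes, and 0 lower, against 5.81% (limma, with 0 members lower at an unadjusted p under 0.05). The 6 not called were Hoxa4, Hoxa6, Hoxb1, Hoxb6, Hoxb9 and Hoxd3. The median member change was 1.996 on the log2 scale, against 0.08 for all 43306 genes. The HoxC genes summed to 13 and 15.1 FPKM in Eed-/- cells, against 1.71 and 1.79 FPKM in Eed fl/- cells. In the E14 libraries, normalized separately and grown in another base medium, they summed to 5.93 to 27.8 FPKM. The HoxD genes summed to 8.69 and 10.1 FPKM in Eed-/- cells, against 1.16 and 0.9 FPKM in Eed fl/- cells, and the HoxA genes to 3.97 and 5.19 FPKM in Eed-/- cells, against 0.426 and 0.488 FPKM in Eed fl/- cells. The HoxB genes summed to 6.08 and 7.9 FPKM in Eed-/- cells, against 1.83 and 1.99 FPKM in Eed fl/- cells, and Hoxb9 made up more of the Eed fl/- sum than all other HoxB genes together.

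The 5' genes included the most abundant ones. Hoxd13, which patterns the digits, had 4.15 and 4.35 FPKM in Eed-/- cells, against 0.847 and 0.701 FPKM in Eed fl/- cells (log2 2.32, SE 0.14, limma adjusted p = 0.00144). Hoxc13 had 3.84 and 4.41 FPKM in Eed-/- cells, against 1.22 and 1.26 FPKM in Eed fl/- cells (log2 1.65, SE 0.13, limma adjusted p = 0.00222). Hoxb13, a gene of the tail bud and prostate, had 2.42 and 3.33 FPKM in Eed-/- cells, against 0.48 and 0.45 FPKM in Eed fl/- cells (log2 2.38, SE 0.20, limma adjusted p = 0.00238). These 3 were already above 0.4 FPKM in both Eed fl/- libraries and did not overlap between the groups. Hoxc10, which acts in the lumbar region, had 1.16 and 1.38 FPKM in Eed-/- cells, against 0.00881 and 0.0572 FPKM in Eed fl/- cells (log2 3.38, SE 0.25, limma adjusted p = 0.00192), the largest log2 change of the members tested. Hoxc12 had 2.7 and 3.26 FPKM in Eed-/- cells, against 0.269 and 0.179 FPKM in Eed fl/- cells (log2 3.26). Hoxa10, which acts in the lumbar spine and uterus, had 0.811 and 0.942 FPKM in Eed-/- cells, against 0.018 and 0.036 FPKM in Eed fl/- cells (log2 2.94). Hoxc10 and Hoxa10 were close to 0 in Eed fl/- cells, and Hoxc12 was not. Hoxa13, a gene of limb and genital tract, had 0.688 and 0.922 FPKM in Eed-/- cells, against 0.0953 and 0.068 FPKM in Eed fl/- cells (log2 2.31). Hoxd10 had 0.583 and 0.566 FPKM in Eed-/- cells, against 0.0222 and 0 FPKM in Eed fl/- cells (log2 2.61), and Hoxd11 had 0.35 and 0.435 FPKM in Eed-/- cells, against 0.0157 and 0.0382 FPKM in Eed fl/- cells (log2 1.96). Paralogues 10 and 11 act in the limbs, and paralogue 11 also in the kidney. Hoxc11 had 1.01 and 1.17 FPKM in Eed-/- cells, against 0 and 0.108 FPKM in Eed fl/- cells (log2 3.04). Hoxa11 had 0.259 and 0.391 FPKM in Eed-/- cells, against 0 and 0.00492 FPKM in Eed fl/- cells (log2 2.04). Hoxd12 was listed at 0 in both Eed fl/- libraries, so no fold is given, and had 0.14 and 0.201 FPKM in Eed-/- cells, from about 23 and 46 fragments.

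Among the central genes, which act in the thorax, Hoxd8 had 1.65 and 1.72 FPKM in Eed-/- cells, against 0.141 and 0.0919 FPKM in Eed fl/- cells (log2 3.06, SE 0.19, limma adjusted p = 0.00146). Hoxd9 had 1.26 and 1.94 FPKM in Eed-/- cells, against 0.0906 and 0.059 FPKM in Eed fl/- cells (log2 3.26). Hoxc9 had 0.796 and 1.07 FPKM in Eed-/- cells, against 0 and 0.0415 FPKM in Eed fl/- cells (log2 3.11). Their Eed fl/- libraries lay at or below 0.141 FPKM. Hoxc8 had 0.393 and 0.501 FPKM in Eed-/- cells, against 0.00594 and 0.00297 FPKM in Eed fl/- cells (log2 2.38). Hoxa9, an oncogene of leukaemia when overexpressed, had 0.376 and 0.388 FPKM in Eed-/- cells, against 0 and 0.0166 FPKM in Eed fl/- cells (log2 2.16). Hoxc6 had 0.569 and 0.56 FPKM in Eed-/- cells, against 0.0559 and 0.00698 FPKM in Eed fl/- cells (log2 2.36). The smallest called changes were in HoxB. Hoxb9 had 1.67 and 2.17 FPKM in Eed-/- cells, against 1.11 and 1.18 FPKM in Eed fl/- cells (log2 0.69, SE 0.17, limma adjusted p = 0.0368), and without the filter its adjusted p was 0.0674. Hoxb8 had 0.13 and 0.106 FPKM in Eed-/- cells, against 0.0213 and 0.0426 FPKM in Eed fl/- cells (log2 0.73). Hoxa6 was listed at 0 in both Eed fl/- libraries and had 0.123 and 0.312 FPKM in Eed-/- cells.

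Among the 3' genes, Hoxc4 had 1.99 and 2.1 FPKM in Eed-/- cells, against 0.118 and 0.118 FPKM in Eed fl/- cells (log2 3.30, SE 0.16, limma adjusted p = 0.00104). Hoxb4, known for expanding blood stem cells, had 1.17 and 1.42 FPKM in Eed-/- cells, against 0.0951 and 0.0884 FPKM in Eed fl/- cells (log2 2.86, SE 0.18, limma adjusted p = 0.0015). Hoxc5 had 0.572 and 0.623 FPKM in Eed-/- cells, against 0.0327 and 0.0136 FPKM in Eed fl/- cells (log2 2.50). These 3 changes lay within the range of those of the 5' genes. Over the members tested, the median log2 change was 1.58 for paralogues 1 to 4, 1.93 for 5 to 8 and 2.35 for 9 to 13. A difference by position was not tested. Hoxd1 had 0.331 and 0.522 FPKM in Eed-/- cells, against 0.0452 and 0 FPKM in Eed fl/- cells (log2 2.103). Hoxa3, which acts in thymus and parathyroid formation, had 0.326 and 0.324 FPKM in Eed-/- cells, against 0.0462 and 0.0377 FPKM in Eed fl/- cells (log2 1.58), and Hoxb3 had 0.22 and 0.246 FPKM in Eed-/- cells, against 0.0106 and 0.0119 FPKM in Eed fl/- cells (log2 1.58). The log2 changes of Hoxa2, Hoxa4, Hoxa5, Hoxb2 and Hoxd4, and of the central genes Hoxa7 and Hoxb7, were 1.12 to 1.93. Hoxb1, a gene of the fourth rhombomere, had 0.0829 and 0.0716 FPKM in Eed-/- cells, against 0.0724 and 0.156 FPKM in Eed fl/- cells, so its groups overlapped and it was not tested. Hoxb5, Hoxb6 and Hoxd3 were not tested either.

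**Figure D2:**
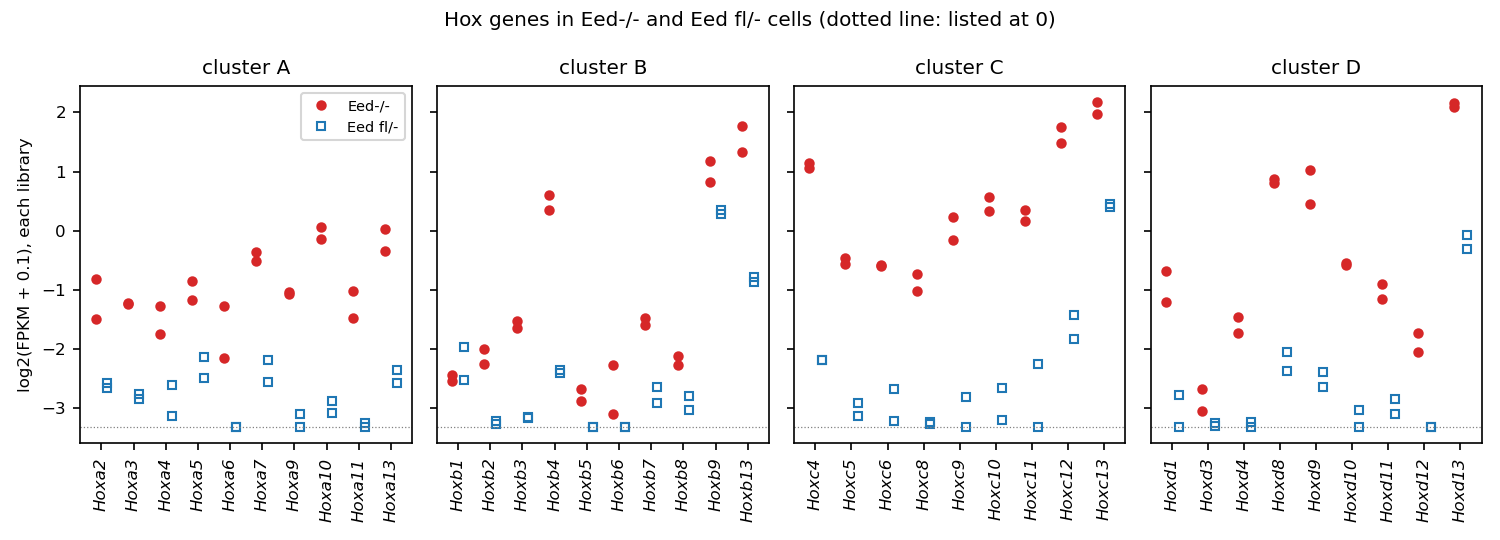
Each point is 1 library's log2(FPKM + 0.1) for 1 gene, Eed-/- (filled) and Eed fl/- (open), by cluster and paralogue number. Every gene but Hoxb1 has both Eed-/- points above both Eed fl/- points, and Hoxd13 and Hoxc13 are the highest in Eed-/- cells.

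The filter bears on the count under it. Of the 34 members that passed, 24 did so only through the Eed-/- libraries and had to differ. The 34 were called higher, against 24.2% of genes. That includes the 10 with at least 1 Eed fl/- library at 0.1 FPKM (Hoxa5, Hoxa7, Hoxb9, Hoxb13, Hoxc4, Hoxc11, Hoxc12, Hoxc13, Hoxd8 and Hoxd13). Of these 10, Hoxa5, Hoxa7, Hoxc11 and Hoxd8 reached 0.1 FPKM in only 1 Eed fl/- library, so they also needed an Eed-/- library to pass. Without Eed-/- replicate 1 or replicate 2 the filter left 10 members, of which 10 and 8 were called, and with the genes of the 4-library fit kept, leaving out any 1 library gave 27 to 32 of 34. Fibroblasts express Hox genes. The 20 fibroblast markers summed to 16.1 and 19.6 FPKM in Eed-/- cells, against 32.7 and 37.3 FPKM in Eed fl/- cells, with 8 of 14 tested higher and 4 lower in Eed-/- cells. Col1a1 had 0.65 and 0.681 FPKM in Eed-/- cells, against 5.69 and 6.8 FPKM in Eed fl/- cells, and Acta2, which made up most of the Eed fl/- sum, had 2.02 and 2.8 FPKM in Eed-/- cells, against 18.5 and 20.8 FPKM in Eed fl/- cells. Pdgfrb had 3.89 and 4.36 FPKM in Eed-/- cells, against 0.68 and 0.594 FPKM in Eed fl/- cells, and Thy1 and Pdgfra were also higher in Eed-/- cells. The markers Col3a1, Lum, Dcn and Prrx1, picked out after their values were seen, were below 0.04 FPKM in all 4 libraries, and none of the 20 was at 0 in all. The 10 trophoblast markers summed to 195 and 275 FPKM in Eed-/- cells, against 73.2 and 81.1 FPKM in Eed fl/- cells, with 8 of 10 higher, and the 10 primitive endoderm markers to 72.9 and 83 FPKM in Eed-/- cells, against 27 and 28.7 FPKM in Eed fl/- cells, with 9 of 10 higher. The part of these cell types in the Hox levels was not tested, and in bulk samples more cells of a type and more RNA per cell cannot be told apart.

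Promoter windows of 300 bases, most of them upstream of the RefSeq start (GRCm38.p6), matched 22 members in 24 windows. The median window held 14.5 CG dinucleotides, against 7 over 32851 windows of all genes. The number varied among genes that were higher in Eed-/- cells, from 45 for Hoxa13 and 37 for Hoxd13 to 4 for Hoxa9. It also varied with the start used, at 4 and 25 in the windows of Hoxd11 and 21 and 12 in those of Hoxa10. The Hoxa9 window lies inside the annotated gene (52223100 to 52231089), the Hoxd13 window upstream of its gene (from 74668310). Their contrast in CG number may therefore depend on the start used. The log2 changes of Hoxd13 and Hoxa9 were 2.32 and 2.16, but Hoxa9 had only 0 and 0.0166 FPKM in Eed fl/- cells. The added 0.1 understates its change more, so these changes cannot be read as equal. Hoxd13 (chr2:74667975-74668274, plus strand) and Hoxa9 (chr6:52227321-52227620, minus strand), picked after their values were seen, are shown for this contrast in CG number, with CG in capitals.
Hoxd13: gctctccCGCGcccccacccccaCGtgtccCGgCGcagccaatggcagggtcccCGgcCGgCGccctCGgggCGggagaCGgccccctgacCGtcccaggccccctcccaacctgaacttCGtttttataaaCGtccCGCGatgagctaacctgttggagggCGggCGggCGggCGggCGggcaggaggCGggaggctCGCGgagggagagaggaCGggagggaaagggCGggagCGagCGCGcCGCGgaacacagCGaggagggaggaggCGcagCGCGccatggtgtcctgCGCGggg
Hoxa9: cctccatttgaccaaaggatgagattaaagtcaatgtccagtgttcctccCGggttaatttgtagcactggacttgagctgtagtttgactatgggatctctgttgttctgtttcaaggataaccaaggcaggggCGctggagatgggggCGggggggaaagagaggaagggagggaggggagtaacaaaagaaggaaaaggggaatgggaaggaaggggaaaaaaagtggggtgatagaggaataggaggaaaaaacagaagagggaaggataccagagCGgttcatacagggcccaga
Hoxb1 (chr11:96365508-96365807, plus strand), the member whose Eed groups overlapped, is shown with TGATNNAT in capitals, a site form of HOX-PBX dimers. Hoxa7 (chr6:52218524-52218823, minus strand), a gene lower under both inhibitors, is shown with TTTATG in capitals, a core of CDX sites. Windows of Hoxb8, Hoxd3, Hoxd4 and Hoxd11 also hold TTTATG. With no filter, Hoxd4 was called lower and Hoxd11 higher in FAOi cells, and Hoxb8 and Hoxd3 were not called. In MYCi cells none of them was called.
Hoxb1: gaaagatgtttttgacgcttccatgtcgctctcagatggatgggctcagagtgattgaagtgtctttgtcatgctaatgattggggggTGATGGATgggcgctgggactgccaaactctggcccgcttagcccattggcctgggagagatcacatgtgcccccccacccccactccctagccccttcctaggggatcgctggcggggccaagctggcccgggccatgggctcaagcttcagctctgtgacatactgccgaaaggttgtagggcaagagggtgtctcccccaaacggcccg
Hoxa7: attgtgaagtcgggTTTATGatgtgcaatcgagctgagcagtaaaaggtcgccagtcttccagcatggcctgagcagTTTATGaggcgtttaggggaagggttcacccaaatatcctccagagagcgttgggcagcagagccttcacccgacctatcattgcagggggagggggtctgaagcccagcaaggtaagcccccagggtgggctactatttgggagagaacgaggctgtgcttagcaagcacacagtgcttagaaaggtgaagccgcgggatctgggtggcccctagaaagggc
Searched on both strands, TGATNNAT was in 16.7% of member windows and 8.8% of all windows, and TTTATG in 20.8% of member windows and 11.9% of all windows. CACGTG, the E-box bound by MYC, was in 20.8% of member windows and 7.2% of all windows. TGATNNAT can share its first TG with the last TG of the other motifs, and a match describes letters only.

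Low against high ΔΨm cells asks whether sorted ESCs of different membrane potential differ at the clusters. Of the 20 members tested, 2 were called higher in low ΔΨm cells, against 14% of genes, and 7 lower, against 6.45%. The lower genes were Hoxc5, Hoxc9, Hoxc10 and Hoxc11 in HoxC, Hoxd8 and Hoxd9 in HoxD, and Hoxb13. The median member change was -0.27 on the log2 scale, against 0.04 for all genes tested. Hoxc11 had 0.27 and 0.346 FPKM in low ΔΨm cells, against 1.03 and 1.2 FPKM in high ΔΨm cells (log2 -1.58, SE 0.18, limma adjusted p = 6.03e-05), about 31.5 and 29.5 fragments, against 135 and 115. Hoxc5 had 0.272 and 0.295 FPKM in low ΔΨm cells, against 0.586 and 0.719 FPKM in high ΔΨm cells (log2 -0.97, SE 0.18, limma adjusted p = 0.00274). Hoxc10 had 0.352 and 0.267 FPKM in low ΔΨm cells, against 0.527 and 0.808 FPKM in high ΔΨm cells (log2 -0.89, SE 0.21, limma adjusted p = 0.0114). Hoxc5 and Hoxc10 share 166 exon bases, so their reads are not wholly separate. Hoxc9 had 0.125 and 0.122 FPKM in low ΔΨm cells, against 0.302 and 0.237 FPKM in high ΔΨm cells (log2 -0.72). Hoxd9 had 0.498 and 0.433 FPKM in low ΔΨm cells, against 0.836 and 0.836 FPKM in high ΔΨm cells (log2 -0.73). Hoxd8 had 0.22 and 0.14 FPKM in low ΔΨm cells, against 0.369 and 0.408 FPKM in high ΔΨm cells (log2 -0.82). These genes did not overlap between the groups. Hoxb13 had 0.392 and 0.333 FPKM in low ΔΨm cells, against 0.807 and 0.637 FPKM in high ΔΨm cells (log2 -0.82).

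The 2 genes called higher lie in HoxD and HoxB. Hoxd13 had 0.528 and 0.549 FPKM in low ΔΨm cells, against 0.241 and 0.262 FPKM in high ΔΨm cells (log2 0.86, SE 0.18, limma adjusted p = 0.00533). Hoxb4 had 0.246 and 0.213 FPKM in low ΔΨm cells, against 0.0965 and 0.102 FPKM in high ΔΨm cells (log2 0.72, SE 0.22, limma adjusted p = 0.0381). The most abundant members were not called. Hoxc12 had 3.54 and 3.68 FPKM in low ΔΨm cells, against 3.37 and 3.8 FPKM in high ΔΨm cells (log2 0.01), and Hoxc13 had 4.5 and 4.67 FPKM in low ΔΨm cells, against 3.54 and 3.85 FPKM in high ΔΨm cells (log2 0.30, SE 0.14, limma adjusted p = 0.154). Hoxb9 had 2.13 and 1.88 FPKM in low ΔΨm cells, against 2.24 and 2.16 FPKM in high ΔΨm cells (log2 -0.13). None of the 5 HoxA genes tested was called. Hoxa5 had 0.692 and 0.606 FPKM in low ΔΨm cells, against 0.272 and 0.492 FPKM in high ΔΨm cells (log2 0.67, SE 0.22, limma adjusted p = 0.0512). The 18 members not tested had at most 0.1 FPKM in any of the 4 libraries. The same 9 genes were called after scaling. FPKM are relative to the library, whereas the paper found less total RNA per low ΔΨm cell and normalized to ERCC spike-in RNA. With an ERCC covariate in the fit, 2 members were higher and 6 lower, with no share of all genes counted. Without low ΔΨm replicate 2 the count lower was 4, without low ΔΨm replicate 1 or high ΔΨm replicate 1 the count higher was 1, and with no filter 0 were higher, against 3.59% of genes, and 1 lower, against 1.11%. The 10 primitive endoderm markers summed to 17.2 and 16.3 FPKM in low ΔΨm cells, against 11.2 and 12.2 FPKM in high ΔΨm cells, with 4 of 9 tested higher, and the 10 naive ESC markers to 912 and 825 FPKM in low ΔΨm cells, against 680 and 797 FPKM in high ΔΨm cells, with 2 of 10 higher. Their part in the result was not tested.

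**Figure D3:**
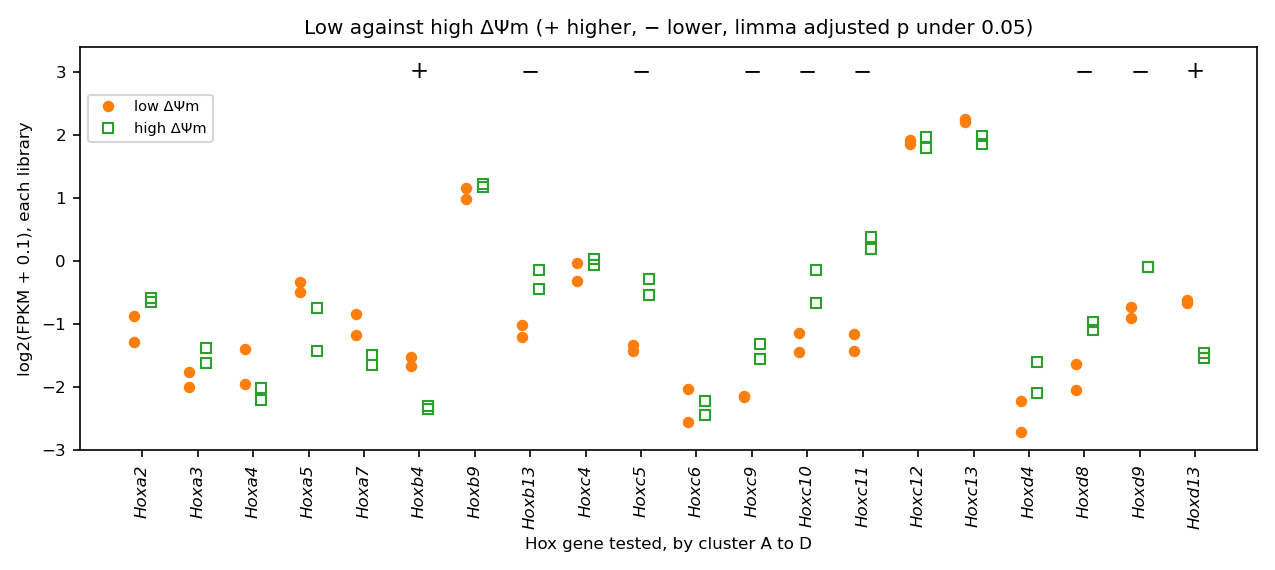
Each point is 1 library's log2(FPKM + 0.1) for the 20 Hox genes tested, low ΔΨm (filled) and high ΔΨm (open). Hoxc5, Hoxc9, Hoxc10 and Hoxc11 are lower in low ΔΨm cells, while Hoxc12 and Hoxc13 were not called.

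The Eed-/- change was set against the low ΔΨm change in 1 fit, as a difference of log2 changes. Of 34 members tested, 32 had a larger change in Eed-/- cells, against 18% of genes, and 0 a smaller one, against 12.9% (limma, with 0 also at an unadjusted p under 0.05). Of the 34, 14 reached 0.1 FPKM in 2 libraries only through Eed-/- cells, so a larger change there was fixed by the filter, and of the other 20, 18 passed. With no filter 33 of 38 passed, against 12.3% of genes, and 0 had a smaller change, against 7.78%. Hoxc11 differed most (4.62, SE 0.46, limma adjusted p = 0.000582), being higher in Eed-/- cells and lower in low ΔΨm cells. Hoxc10 (4.27), Hoxd9 (3.99), Hoxd8 (3.87), Hoxc9 (3.83), Hoxc5 (3.47) and Hoxb13 (3.20) had the same opposed directions. Hoxb4 and Hoxd13 were higher in both, by 2.13 and 1.46 more in Eed-/- cells. No difference passed for Hoxa4 (0.92, SE 0.39, limma adjusted p = 0.123) and Hoxa5 (0.64, SE 0.37, limma adjusted p = 0.238). Without Eed-/- replicate 1 or replicate 2 the filter left 21 members, of which 19 and 19 passed. Line and culture differ between the tables and cannot be told apart from genotype and sort.

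Under the fatty acid oxidation inhibitor members moved in both directions. Of 28 tested, 4 were called higher in FAOi, against 13.9% of genes, and 10 lower, against 51.3%. After scaling 9 were higher, against 30.9%, and 5 lower, against 31.2%. The median member change was -0.34 on the deposited log2 scale, against -0.66 for all genes, and 0.30 against 0.05 after scaling. Of the 28, 1 (Hoxa11) passed the filter only through FAOi and 4 (Hoxa6, Hoxa9, Hoxb1 and Hoxd4) only through H2O. The filter fixed the direction of these genes on the deposited scale. Hoxb9 had 7.03 and 6.58 FPKM in FAOi cells, against 2.4 and 2.65 FPKM in H2O cells (log2 1.40, SE 0.28, limma adjusted p = 4.25e-06, and 2.17 after scaling). Hoxb4 had 0.781 and 0.818 FPKM in FAOi cells, against 0.383 and 0.343 FPKM in H2O cells (log2 0.96, SE 0.29, limma adjusted p = 0.00209, and 1.61 after scaling). Hoxa5, a gene of lung development, had 0.564 and 0.554 FPKM in FAOi cells, against 0.298 and 0.333 FPKM in H2O cells (log2 0.67, and 1.30 after scaling). The groups did not overlap for these 3, and the calls held on both scales. Hoxa11 had 0.113 and 0.164 FPKM in FAOi cells, against 0 and 0.0208 FPKM in H2O cells (log2 1.11, and 1.39 after scaling), but 35% of its exon bases are shared with Hoxa11os.

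Lower on both scales was Hoxb13, with 0.197 and 0.45 FPKM in FAOi cells, against 1.16 and 2.32 FPKM in H2O cells (log2 -2.11, SE 0.29, limma adjusted p = 5.23e-12, and -1.43 after scaling). Hoxb1 was listed at 0 in both FAOi libraries and had 0.294 and 0.233 FPKM in H2O cells, from about 33 and 19 fragments. Hoxa7 had 0.217 and 0.221 FPKM in FAOi cells, against 0.674 and 0.868 FPKM in H2O cells (log2 -1.44, SE 0.29, limma adjusted p = 3.96e-06, and -0.81 after scaling). Both Hoxb13 libraries of a group differed widely from each other, those of Hoxa7 less so. Hoxc4 had 1.07 and 1.17 FPKM in FAOi cells, against 2.93 and 4.14 FPKM in H2O cells (log2 -1.56, SE 0.28, limma adjusted p = 2.69e-07, and -0.81 after scaling). Hoxa9 had 0.00627 and 0.012 FPKM in FAOi cells, against 0.146 and 0.132 FPKM in H2O cells (log2 -1.13, and -0.88 after scaling). These 5 were called on both scales, but the filter fixed the direction of Hoxb1 and Hoxa9 on the deposited scale. Lower on the deposited scale only were Hoxa2, Hoxa3, Hoxa6, Hoxc5 and Hoxd4, at log2 -0.97 to -0.65 (-0.41 to -0.07 after scaling). Hoxc5 had 0.629 and 0.473 FPKM in FAOi cells, against 1.02 and 1.35 FPKM in H2O cells (log2 -0.97, and -0.27 after scaling). Higher after scaling only were Hoxc8, Hoxc9, Hoxc12, Hoxc13 and Hoxd10. Hoxc13 had 8.13 and 7.75 FPKM in FAOi cells, against 8.7 and 11.8 FPKM in H2O cells (log2 -0.35, and 0.43 after scaling), about 1332 and 1422 fragments, against 1035 and 1025. Without FAOi replicate 1 or 2, 0 members were higher and 4 lower in either case. The 10 naive ESC markers were lower on both scales, and the 10 trophoblast markers summed to 37.7 and 39.2 FPKM in FAOi cells, against 19.2 and 25.4 FPKM in H2O cells, with 6 of 8 tested higher. Their part in the Hox levels was not tested.

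The MYC inhibitor gave 1 member called higher of 21 tested, against 7.89% of genes, and 9 lower, against 57.8%. After scaling 5 were higher, against 25.4%, and 4 lower, against 28.4%. The median member change was -0.35 on the deposited log2 scale, against -0.65 for all genes. Of the 21, 3 (Hoxa3, Hoxa4 and Hoxb1) passed the filter only through DMSO, which fixed their direction on the deposited scale. Hoxb9 had 4.19 and 4.83 FPKM in MYCi cells, against 2.71 and 2.57 FPKM in DMSO cells (log2 0.75, SE 0.15, limma adjusted p = 0.00166, and 1.49 after scaling). Hoxb13 had 0.219 and 0.147 FPKM in MYCi cells, against 0.867 and 0.69 FPKM in DMSO cells (log2 -1.64, SE 0.23, limma adjusted p = 0.000159, and -1.04 after scaling). Hoxa7 had 0.0923 and 0.116 FPKM in MYCi cells, against 0.457 and 0.461 FPKM in DMSO cells (log2 -1.45, SE 0.23, limma adjusted p = 0.000293, and -0.94 after scaling). None of these overlapped between the groups. Hoxa4 had 0.0273 and 0.0117 FPKM in MYCi cells, against 0.245 and 0.209 FPKM in DMSO cells (log2 -1.45, and -1.12 after scaling). Hoxb1 had 0 and 0.0121 FPKM in MYCi cells, against 0.197 and 0.187 FPKM in DMSO cells (log2 -1.46, and -1.20 after scaling). Hoxa4 and Hoxb1 rested on at most 20 fragments a library. Hoxa2, Hoxa3, Hoxc4, Hoxc5 and Hoxc9 were lower on the deposited scale only, at log2 -1.18 to -0.52 (-0.66 to 0.11 after scaling, where Hoxc9 changed sign). Hoxc4 had 1.26 and 1.47 FPKM in MYCi cells, against 2.77 and 2.31 FPKM in DMSO cells (log2 -0.85, and -0.12 after scaling). After scaling Hoxb4, Hoxc8, Hoxc11 and Hoxc13 were also called higher. Without DMSO replicate 1 the count lower was 5, and with no filter it was 5, against 32.7% of genes, with 1 higher, against 4.74%. The 10 naive ESC markers summed to 405 and 474 FPKM in MYCi cells, against 1072 and 955 FPKM in DMSO cells, with 10 lower, or 9 after scaling. Their part in the Hox levels was not tested.

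The FAOi change minus the MYCi change passed for 0 of 28 members in either direction, against 0.951% and 0.389% of genes (limma, with 5 and 2 members at an unadjusted p under 0.05). After scaling it passed for 5 members with a larger change in FAOi (Hoxa4, Hoxa5, Hoxa11, Hoxb4 and Hoxb9) and for Hoxc4 with a smaller one. The share of all genes after scaling was not counted, so these calls cannot be set against a general rate. For Hoxb9 the difference was 0.65 on the deposited scale (limma adjusted p = 0.22) and 0.69 after scaling (adjusted p = 0.01). The inhibitors were given for 4 and 3 days.

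**Figure D4:**
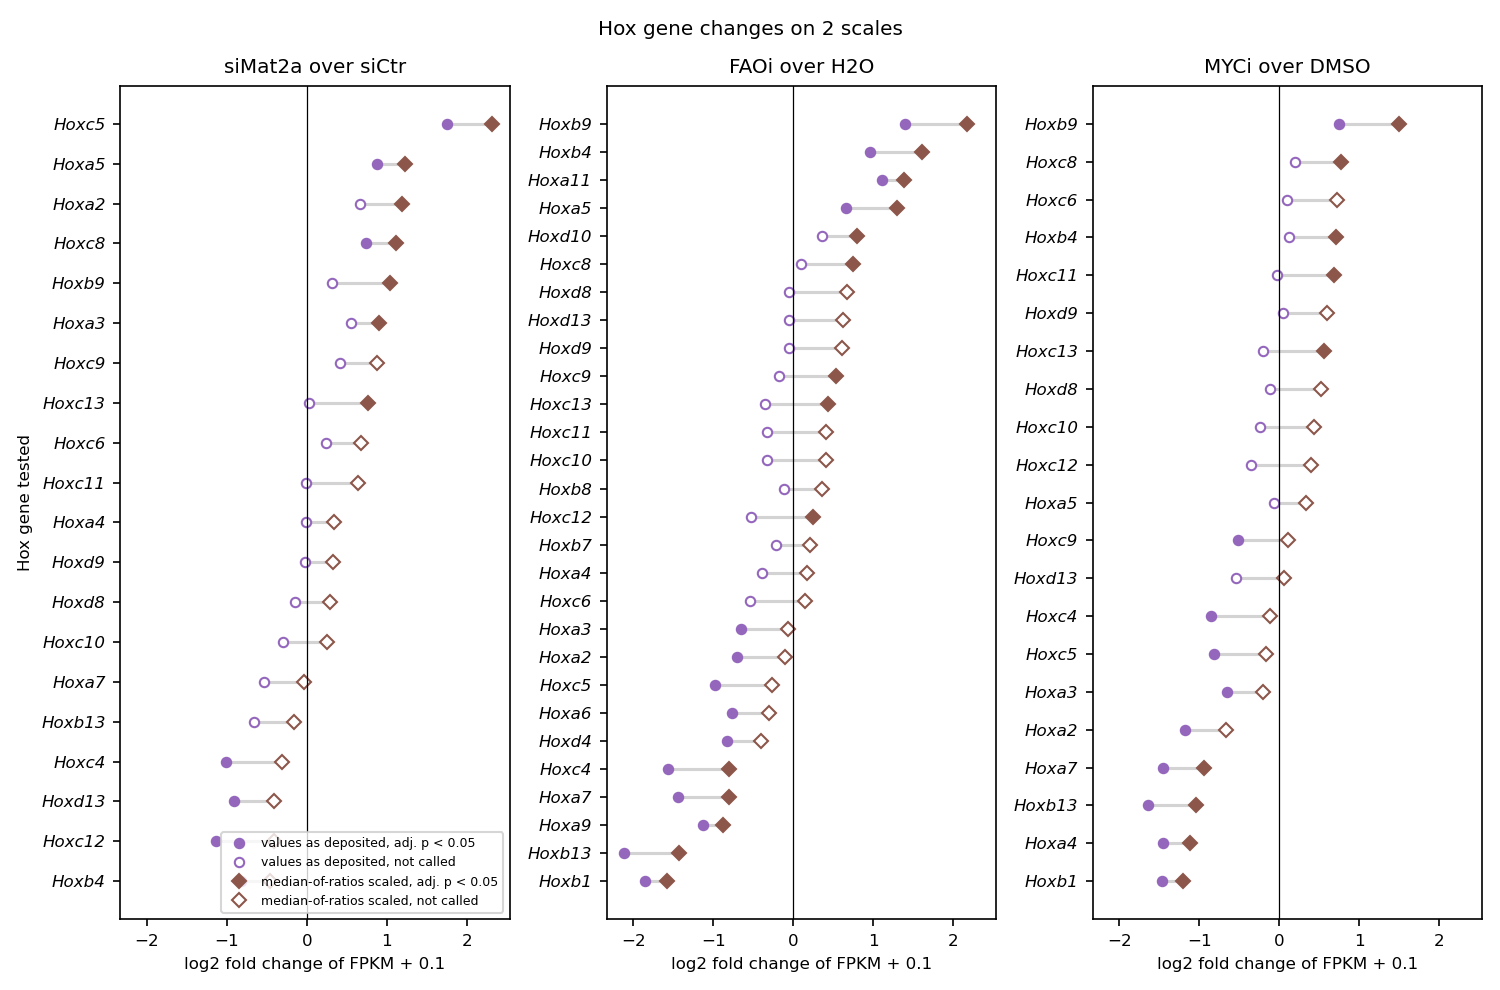
Log2 change of FPKM + 0.1 for each Hox gene tested in siMat2a, FAOi and MYCi cells, on the deposited scale and after median-of-ratios scaling, filled where limma's adjusted p is under 0.05. Hoxb9 is higher on both scales in FAOi and MYCi, and Hoxb13, Hoxb1 and Hoxa7 are lower.

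In siMat2a cells 3 of 20 members tested were called higher, against 13.1% of genes, and 4 lower, against 36.8%. After scaling 7 were higher, against 23%, and 0 lower, against 19.8% (limma, with 0 lower at an unadjusted p under 0.05). The median member change was -0.01 on the deposited log2 scale, against -0.63 for all genes. Of the 20, 2 (Hoxa3 and Hoxc8) passed the filter only through siMat2a, which fixed their direction on the deposited scale. Hoxc5 had 0.889 and 0.718 FPKM in siMat2a cells, against 0.12 and 0.221 FPKM in siCtr cells (log2 1.76, SE 0.33, limma adjusted p = 1.48e-06, and 2.31 after scaling), about 175 and 195 fragments, against 16.5 and 29.5. Hoxc8 had 0.202 and 0.147 FPKM in siMat2a cells, against 0.0757 and 0.0531 FPKM in siCtr cells (log2 0.73, and 1.11 after scaling). Hoxa5 had 0.23 and 0.155 FPKM in siMat2a cells, against 0.012 and 0.123 FPKM in siCtr cells (log2 0.87, and 1.23 after scaling). These 3 were higher on both scales, Hoxc8 in the direction that the filter fixed. Hoxa5 reached 0.1 FPKM in only 1 siCtr library, so it also needed a siMat2a library to pass. Hoxc12 had 1.89 and 1.96 FPKM in siMat2a cells, against 4.45 and 4.29 FPKM in siCtr cells (log2 -1.14, SE 0.37, limma adjusted p = 0.00829, and -0.41 after scaling). Hoxc4 had 1.35 and 0.999 FPKM in siMat2a cells, against 2.55 and 2.37 FPKM in siCtr cells (log2 -1.02, and -0.31 after scaling). Hoxd13 had 0.215 and 0.0985 FPKM in siMat2a cells, against 0.363 and 0.378 FPKM in siCtr cells (log2 -0.91, and -0.41 after scaling). Of the 4 lower genes none was called after scaling. Hoxb4 had 0.113 and 0.031 FPKM in siMat2a cells, against 0.18 and 0.212 FPKM in siCtr cells (log2 -0.82, and -0.47 after scaling). Hoxa2, Hoxa3, Hoxb9 and Hoxc13 were higher after scaling only. Without siCtr replicate 1, 0 members were higher and 0 lower, without siCtr replicate 2, 0 were lower, without siMat2a replicate 1, 1 was higher, and without siMat2a replicate 2, 2 were lower. With no filter 0 were higher, against 2.59% of genes, and 0 lower, against 0.809%. The 20 fibroblast markers summed to 8.7 and 5.47 FPKM in siMat2a cells, against 3.9 and 3.98 FPKM in siCtr cells, with 6 of 10 tested higher and 2 lower. The 10 naive ESC markers summed to 609 and 375 FPKM in siMat2a cells, against 1089 and 1029 FPKM in siCtr cells, with 6 lower on either scale. Of the trophoblast markers 4 of 8 tested were higher and 1 lower, and of the primitive endoderm markers 4 of 9 higher and 1 lower. The part of these cell types in the result was not tested.

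With SAM at 50 µM against 25 µM, 0 of 14 members tested were called in either direction (limma, with 0 at an unadjusted p under 0.05), against 0.389% of genes higher and 0.493% lower. Same-numbered libraries' deviations correlated at 0.3 here, and with a replicate block 1 member was called lower. Hoxc13 had 5.13 and 3.24 FPKM in cells at 50 µM, against 5.62 and 4.55 FPKM in cells at 25 µM (log2 -0.30). Hoxb9 had 1.91 and 1.39 FPKM in cells at 50 µM, against 1.69 and 1.57 FPKM in cells at 25 µM (log2 0.00). Hoxd13 had 0.934 and 0.403 FPKM in cells at 50 µM, against 1 and 0.84 FPKM in cells at 25 µM (log2 -0.50, SE 0.33, limma adjusted p = 0.603). The groups overlapped for these 3 genes. Of 36 members above 0 in any library, 11 had both libraries at 50 µM below both at 25 µM, against 27.7% of genes, and 2 had both above, against 6.98%. Hoxa2 had 0.11 and 0.148 FPKM in cells at 50 µM, against 0.197 and 0.239 FPKM in cells at 25 µM (log2 -0.47), and Hoxc5 had 0.186 and 0.125 FPKM in cells at 50 µM, against 0.268 and 0.241 FPKM in cells at 25 µM (log2 -0.48), neither of which was called. The share of members that lay lower was close to that of all genes.

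CDX proteins activate Hox genes in the posterior embryo. Cdx1 had 3.03 and 2.84 FPKM in FAOi cells, against 63 and 95.3 FPKM in H2O cells (log2 -4.68, SE 0.30, limma adjusted p = 2.28e-52, and -3.89 after scaling). Cdx1 had 2.74 and 3.62 FPKM in MYCi cells, against 51.4 and 49.9 FPKM in DMSO cells (log2 -3.96, SE 0.17, limma adjusted p = 2.32e-06, and -3.21 after scaling). Cdx1 had 7.95 and 4.05 FPKM in siMat2a cells, against 35.5 and 35.8 FPKM in siCtr cells (log2 -2.63, and -1.88 after scaling). It was also lower in low ΔΨm cells, with 42.4 and 39.4 FPKM in low ΔΨm cells, against 60.2 and 72.3 FPKM in high ΔΨm cells (log2 -0.69). Without EED its direction was the opposite. Cdx1 had 15 and 17 FPKM in Eed-/- cells, against 2.08 and 2.22 FPKM in Eed fl/- cells (log2 2.84, SE 0.11, limma adjusted p = 0.000956). Cdx2, which also specifies trophectoderm, had 0.168 and 0.129 FPKM in FAOi cells, against 3.51 and 3.84 FPKM in H2O cells (log2 -3.93, and -3.29 after scaling). Cdx2 had 5.8 and 8.19 FPKM in Eed-/- cells, against 0.662 and 0.575 FPKM in Eed fl/- cells (log2 3.29). Cdx4 was lower in Eed-/- cells, with 0.0157 and 0.0141 FPKM in Eed-/- cells, against 0.167 and 0.201 FPKM in Eed fl/- cells (log2 -1.30).

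Of the 11 TALE cofactors, the homeodomain partners of HOX proteins, 4 were higher and 1 lower in Eed-/- cells, where 24.2% of all genes were higher and 12.1% lower. Meis2 had 0.682 and 0.682 FPKM in Eed-/- cells, against 0.201 and 0.253 FPKM in Eed fl/- cells (log2 1.26). In FAOi cells 7 of 11 were lower and 1 higher, against 51.3% and 13.9% of genes, and after scaling 6 and 3, against 31.2% and 30.9%. Of 17 retinoic acid pathway genes tested, 9 were higher and 3 lower in Eed-/- cells. Dhrs3, which limits retinoic acid, had 3.62 and 3.9 FPKM in Eed-/- cells, against 0.709 and 0.686 FPKM in Eed fl/- cells (log2 2.27), and the receptor gene Rarg had 6.33 and 8.85 FPKM in Eed-/- cells, against 27.9 and 30.8 FPKM in Eed fl/- cells (log2 -1.96). A list of 44 other homeobox genes was chosen as genes under PRC2, so its count does not describe homeobox genes in general. Of these, 31 were tested, and 23 were higher and 2 lower in Eed-/- cells. How many passed the filter only through Eed-/- cells was not counted. Of 16 PRC2 and H3K27 demethylase genes, 3 were higher and 5 lower in Eed-/- cells, 0 higher and 11 lower in FAOi cells (5 and 9 after scaling) and 0 higher and 13 lower in MYCi cells (4 and 8 after scaling). Of all genes 51.3% were lower in FAOi cells and 57.8% in MYCi cells, or 31.2% and 28.4% after scaling, so these counts stand beside a general shift. Ezh2, the catalytic subunit of PRC2, had 8.08 and 7.72 FPKM in FAOi cells, against 18.8 and 25.9 FPKM in H2O cells (log2 -1.47, and -0.68 after scaling). Of 19 PRC1 genes 4 were higher and 7 lower in Eed-/- cells, and of 12 trithorax genes 1 was higher and 2 lower.

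Of 11 non-coding genes of the clusters tested, 9 were higher and 1 lower in Eed-/- cells, against 24.2% and 12.1% of all genes. The higher ones include the microRNA hairpins Mir196a-1, Mir196b, Mir10a, Mir10b, Mir196a-2 and Mir615. All of these but Mir196a-1 rested on very few fragments. Mir196b, Mir10b, Mir196a-2 and Mir615 were at 0 in both Eed fl/- libraries, so the filter fixed their direction. The lower one was Halr1, a long non-coding RNA beside the 3' end of HoxA. Halr1 had 1.83 and 1.78 FPKM in Eed-/- cells, against 7.27 and 7.99 FPKM in Eed fl/- cells (log2 -2.02, SE 0.11, limma adjusted p = 0.00118). Halr1 had 0.197 and 0.344 FPKM in MYCi cells, against 4.42 and 4.15 FPKM in DMSO cells (log2 -3.59, and -2.93 after scaling). Halr1 had 0.97 and 1.03 FPKM in FAOi cells, against 4.65 and 7.1 FPKM in H2O cells (log2 -2.42, and -1.66 after scaling). In low ΔΨm cells it was higher, with 4.22 and 3.53 FPKM in low ΔΨm cells, against 2.17 and 2.42 FPKM in high ΔΨm cells (log2 0.73). Hotairm1, also at the 3' end of HoxA, had 0.794 and 1.09 FPKM in Eed-/- cells, against 0.347 and 0.336 FPKM in Eed fl/- cells (log2 1.22), and 0.265 and 0.37 FPKM in MYCi cells, against 1.27 and 1.25 FPKM in DMSO cells (log2 -1.71, and -1.06 after scaling). Evx1, the homeobox gene past the 5' end of HoxA, had 0.635 and 0.575 FPKM in low ΔΨm cells, against 1.43 and 1.66 FPKM in high ΔΨm cells (log2 -1.22, SE 0.16, limma adjusted p = 0.000193).

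**Figure D5:**
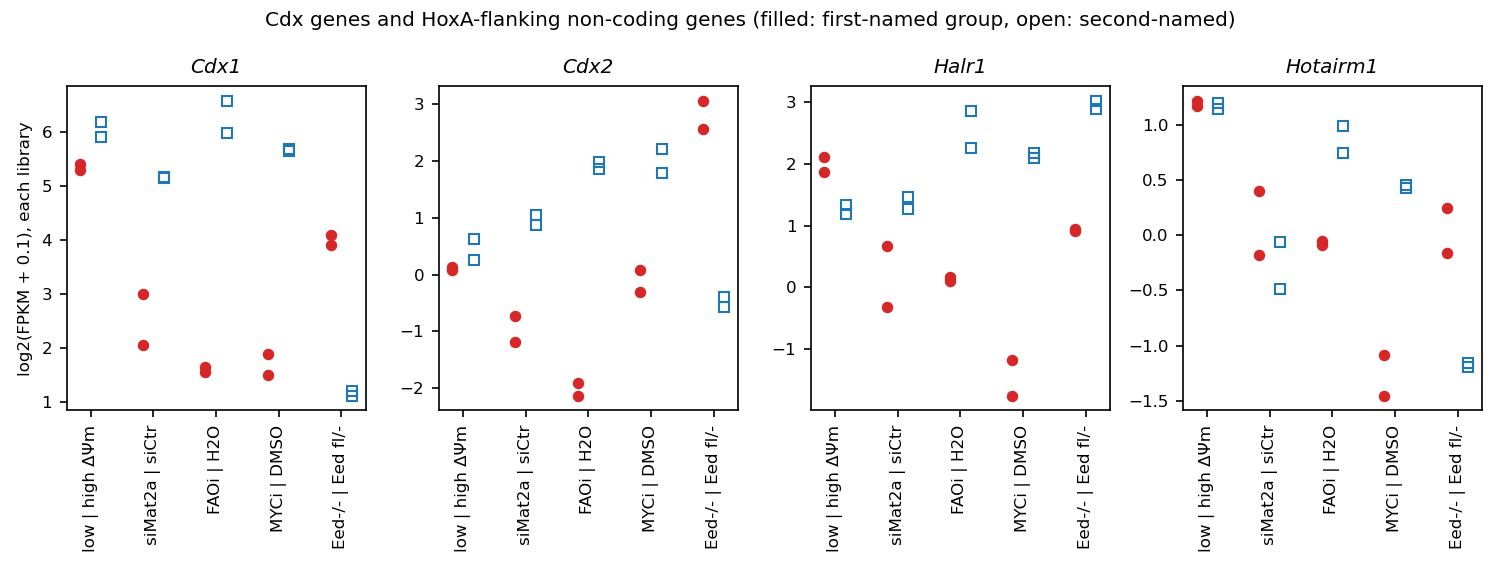
Each point is 1 library's log2(FPKM + 0.1) of the Cdx and cluster non-coding genes shown, with the first-named group of each comparison filled and the second open. Cdx1 and Cdx2 are lower in FAOi and MYCi cells and higher in Eed-/- cells, whereas Halr1 is lower in all 3.

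The clusters also hold the miR-10 and miR-196 families, which repress Hox mRNAs. Their mature 5p sequences (RefSeq, GRCm38.p6) are shown for the seed that each pair shares, bases 2 to 8, in capitals.
miR-196a-5p: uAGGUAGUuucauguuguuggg
miR-196b-5p: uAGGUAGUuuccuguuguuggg
miR-10a-5p: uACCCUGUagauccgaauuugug
miR-10b-5p: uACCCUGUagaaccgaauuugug
These libraries measure RNA over the hairpins, not mature miRNAs. The hairpin Mir196a-1 (chr11:96265164-96265265) had 10.1 and 11.9 FPKM in Eed-/- cells, against 2.8 and 4.12 FPKM in Eed fl/- cells (log2 1.66, SE 0.21, limma adjusted p = 0.00579), about 67 and 109 fragments, against 17 and 25. The hairpins Mir196b, Mir10a, Mir10b, Mir196a-2 and Mir615 were called higher too, but on fewer than 5 fragments in each library, and all but Mir10a were listed at 0 in Eed fl/- cells.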

How the data were processed

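RNA was ribosomal RNA-depleted and sequenced from 24 libraries. The authors aligned reads to mm10 with TopHat2 2.1.1, counted them with featureCounts without strand and with fractional sharing of multi-mapped and overlapping reads, and deposited FPKM made with edgeR, 1 table per comparison. The tables were normalized separately, so tests stayed within a table except for the 2 differences of changes. Library totals were estimated from the FPKM steps of single-exon genes.

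Log2(FPKM + 0.1) was fitted per table with limma 3.58.1 (R 4.3.3, trended variance) over genes at 0.1 FPKM or more in at least 2 of 4 libraries, with Benjamini-Hochberg adjustment. The procedure was tested on simulated data. Replicates were separate cultures as far as the methods state. Alternatives were other pseudocounts (0.01 and 1), filters, median-of-ratios scaling, a replicate block, leaving out each library and, in low ΔΨm, an ERCC covariate.

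Members and lists were chosen with earlier results of these data known. Members called in a comparison are named there and in others where they reached 0.1 FPKM, and up to 4 called genes of each other list by adjusted p. Hoxa6, Hoxd12, Hoxb1 and the promoters shown were picked after their values were seen.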

Additional observations from a re-analysis of the deposited data

Results flagged for a closer look

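The change in Eed-/- cells exceeded the change in low ΔΨm cells for 32 of 34 Hox genes, by a test of the difference itself, but 14 of the 34 were tested only through their level in Eed-/- cells and had to differ. Of the other 20, 18 passed, and with no filter 33 of 38. Among the members called in low ΔΨm cells, the difference of log2 changes was 2.13 for Hoxb4, 3.20 for Hoxb13, 3.47 for Hoxc5, 3.83 for Hoxc9, 4.27 for Hoxc10, 4.62 for Hoxc11, 3.87 for Hoxd8, 3.99 for Hoxd9 and 1.46 for Hoxd13. The cell lines and base media of the tables differ and cannot be told apart from genotype and sort.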

How the results depend on the processing

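With no filter on low values, members called numbered 0 higher and 1 lower in low ΔΨm, 0 higher and 0 lower in siMat2a, 1 higher and 5 lower in MYCi and 32 higher and 0 lower of 38 in Eed-/- cells. At a minimum of 1 FPKM, which left 3 to 11 members in each fit, they numbered 0 higher and 1 lower in low ΔΨm, 0 higher and 2 lower in siMat2a, 1 higher and 3 lower in FAOi, 1 higher and 2 lower in MYCi and 11 higher in Eed-/- cells, and 11 had a larger Eed-/- than low ΔΨm change. Shares of all genes were not counted at that minimum, so these counts only compare settings. Median-of-ratios scaling gave 7 higher and 0 lower in siMat2a, 9 higher and 5 lower in FAOi and 5 higher and 4 lower in MYCi. For FAOi minus MYCi it gave 5 higher and 1 lower, with no share of all genes counted. Scaling turned Hoxc9 in MYCi to 0.11. The cause was not tested.

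Leaving out 1 library gave 1 to 2 higher and 4 to 6 lower in low ΔΨm, 0 to 3 higher and 0 to 5 lower in siMat2a, 0 to 4 higher and 4 to 9 lower in FAOi, 1 higher and 5 to 10 lower in MYCi, 8 to 32 higher in Eed-/- cells and 19 to 31 for Eed-/- minus low ΔΨm. With the genes of the 4-library fit kept, an alternative chosen after seeing the data, the ranges were 1 to 4 higher and 5 to 9 lower, 1 to 5 higher and 0 to 5 lower, 1 to 4 higher and 4 to 13 lower, 1 higher and 5 to 8 lower and 27 to 32 higher in the same first 5 comparisons. A lone library was assumed to vary like the others. Shares of all genes were not counted for these fits, so the counts only compare settings.

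No pairing of same-numbered libraries is stated. Their deviations correlated at 0.3 in the SAM comparison and at -0.1004 to 0.0723 in the others. A replicate block gave 3 higher and 7 lower in low ΔΨm, 2 higher and 4 lower in siMat2a, 3 higher and 9 lower in FAOi, 1 higher and 9 lower in MYCi, 33 higher and 0 lower in Eed-/- cells and 0 higher and 1 lower with SAM. The crossed pairing in FAOi, also chosen after seeing the data, gave 4 higher and 10 lower. For the block fits too, shares of all genes were not counted. Depth limits genes under 0.1 FPKM.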
